A study of Homo sapiens with 4 samples.

Results

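Cardiomyocytes release and take back calcium from the sarcoplasmic reticulum at each beat, and 10 genes of this cycle were examined among the 23615 gene symbols of the deposited table: RYR2, CASQ2, TRDN, JPH2, HRC, ATP2A2, PLN, SLN, SLC8A1 and CALR. The genes were chosen by name for their known function, with earlier results of these data known. All 10 were found as single rows. All 10 had a mean of at least 1 FPKM (fragments per kilobase of transcript, scaled to the depth of the library) over the 4 libraries. The libraries were made from poly-A RNA of unsorted cultures at day 14 of differentiation, with 2 biological replicates of cardiomyocytes from cardiac progenitor cells (CPC) and 2 of cardiomyocytes from anterior hemogenic endothelial cells (ECsXAV). Both groups came from RUES2, a human embryonic stem cell line, and per the study's methods both were induced with 100 ng/ml activin A, then 5 ng/ml BMP4 with 1 µM CHIR-99021, an activator of Wnt/β-catenin signaling that was also given before induction. The endothelial route used 200 ng/ml VEGF, 5 ng/ml bFGF and 10 ng/ml BMP4 from day 2, followed on day 5 by 2 µM XAV-939, a tankyrase inhibitor that lowers Wnt/β-catenin signaling. The progenitor route had no VEGF step, and the methods give 1 µM XAV-939 on day 3 for a subset of such experiments. Both routes received insulin-containing supplement from day 7. The cultures came from 1 line and were not sorted, so values describe mixed cultures, and in such bulk RNA fewer cardiomyocytes and less RNA per cardiomyocyte cannot be told apart. The title prefixes of the samples also differ by group, so if they mark separate experiments, experiment and origin cannot be told apart.

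In a heartbeat, calcium entering through surface channels opens the ryanodine receptor RYR2, and calcium stored in the sarcoplasmic reticulum floods the cytosol. In the lumen, calsequestrin (CASQ2) and the histidine-rich calcium binding protein (HRC) hold the stored calcium, triadin (TRDN) couples calsequestrin to the receptor, and junctophilin 2 (JPH2) holds the reticulum close to the surface membrane. The pump SERCA2 (ATP2A2) refills the store under the brake of phospholamban (PLN) and sarcolipin (SLN), and the sodium-calcium exchanger NCX1 (SLC8A1) moves the rest out of the cell.

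The cultures expressed cardiomyocyte genes in both groups. All 12 cardiomyocyte markers had a mean of at least 1 FPKM, with a summed level of 13897 and 14376 FPKM in ECsXAV and 11870 and 12728 FPKM in CPC cardiomyocytes. In this paragraph the lower library of each group is given before the higher, and in later paragraphs replicate 1 is given before replicate 2. Summed over 5 ventricular markers, the level was 2507 and 2738 FPKM in ECsXAV and 1291 and 1509 FPKM in CPC cardiomyocytes. Over 7 atrial markers, SLN among them, it was 2323 and 2661 FPKM against 1621 and 1782 FPKM. Most of the atrial sum came from MYL4, while SLN stood the other way. The 9 fibroblast or stroma markers summed to 192 and 227 FPKM against 105 and 107 FPKM, the 5 smooth muscle markers to 267 and 297 FPKM against 141 and 168 FPKM, and the 7 hepatic or endoderm markers to 33.4 and 41.4 FPKM against 16.6 and 18.7 FPKM. Of the smooth muscle markers, ACTA2 overlapped between the groups, at 57.5 and 80.5 FPKM against 74.2 and 78.5 FPKM. The 8 endothelial markers summed to 11.4 and 12.7 FPKM against 11.1 and 14.3 FPKM, and VWF was near or at 0 in both groups, with 0.0052 and 0.021 FPKM in ECsXAV and 0 in both CPC libraries. Among these markers MYBPC3, NPPA, MYL2, MYH7, COL1A1, COL3A1, LUM, TAGLN, AFP, TTR and APOA2 fell in CPC cardiomyocytes under the criterion given with the comparison. LUM, AFP, TTR and APOA2 reached a mean of 1 FPKM through the ECsXAV libraries alone, so a fall was the only call open to them. The part of other cell types in the members' values was not tested. Relative to ECsXAV replicate 1, the sequencing depth was 50.1% to 86.9% in the other 3 libraries, as read from the steps of weakly expressed genes, and the absolute depth is unknown.

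The members covered a wide span of levels. PLN was the most abundant in every library and ranked between 12 and 42 among the 12398 genes tested, and ATP2A2 ranked between 104 and 151. In ECsXAV cardiomyocytes the order of mean FPKM was PLN, ATP2A2, SLC8A1, HRC, CALR, JPH2, TRDN, RYR2, CASQ2 and SLN, in which the libraries of JPH2 and TRDN overlapped, as did those of CASQ2 and SLN. In CPC cardiomyocytes it was PLN, HRC, ATP2A2, SLC8A1, CALR, TRDN, JPH2, RYR2, SLN and CASQ2, and of these neighbors only SLC8A1 and CALR had overlapping libraries. HRC thus stood above ATP2A2 in CPC cardiomyocytes and below it in ECsXAV cardiomyocytes, and SLN and CASQ2 also traded places.

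**Figure D1:**
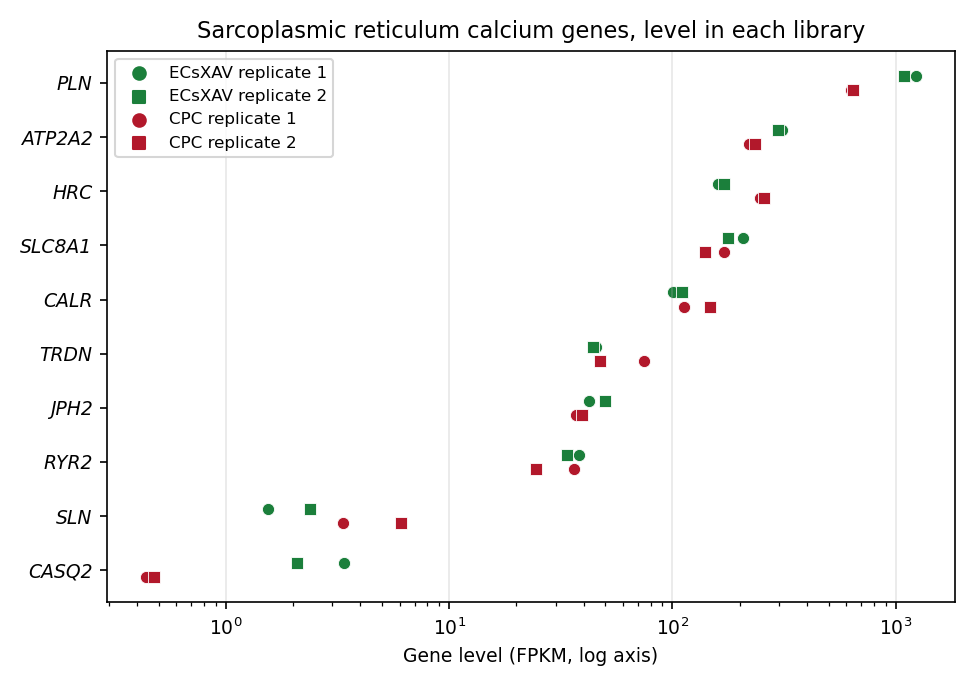
Level of each gene (FPKM, log axis) in each of the 4 libraries, ordered by the mean over libraries, with green for ECsXAV and red for CPC, circles for replicate 1 and squares for replicate 2. PLN lies between 629 and 1234 FPKM in all libraries, while CASQ2 lies at 3.38 and 2.09 FPKM in ECsXAV and at 0.437 and 0.476 FPKM in CPC cardiomyocytes.

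To ask whether the calcium cycle genes differed between cardiomyocytes of the 2 origins, log2(FPKM + 1) was compared with limma as CPC minus ECsXAV, so that a negative value is lower in CPC cardiomyocytes. The criterion asked for more than a 2-fold change together with an adjusted p below 0.05. By limma 0 of the 10 genes passed it, beside 2.15% of all 12398 genes tested. At an unadjusted p under 0.05 there were 5 of the 10 beside 18.2% of all genes tested, of which CASQ2, PLN and ATP2A2 were lower in CPC cardiomyocytes (10.4% of all genes) and HRC and SLN higher (7.86%). The libraries of the groups did not overlap for 9 of the 10, with RYR2 as the exception, beside 49.8% of all genes tested, and 5 of these were lower (25.4% of all genes) and 4 higher (24.4%). The median difference of the 10 genes was -0.26 and that of all genes tested -0.0045. The median size of the difference without regard to sign was 0.41 against 0.17. The genes were chosen with earlier results of these data known. These shares and medians therefore describe the 10 genes and are not an independent result. CASQ2 reached a mean of 1 FPKM through the ECsXAV libraries alone. For 7 of the 10 the 95% confidence interval lay within 2-fold in either direction, and for CASQ2, PLN and SLN it reached beyond. The smallest two-sided p that an exact permutation of 4 libraries allows is 0.333, and the limma values therefore borrow their spread from all genes.

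**Figure D2:**
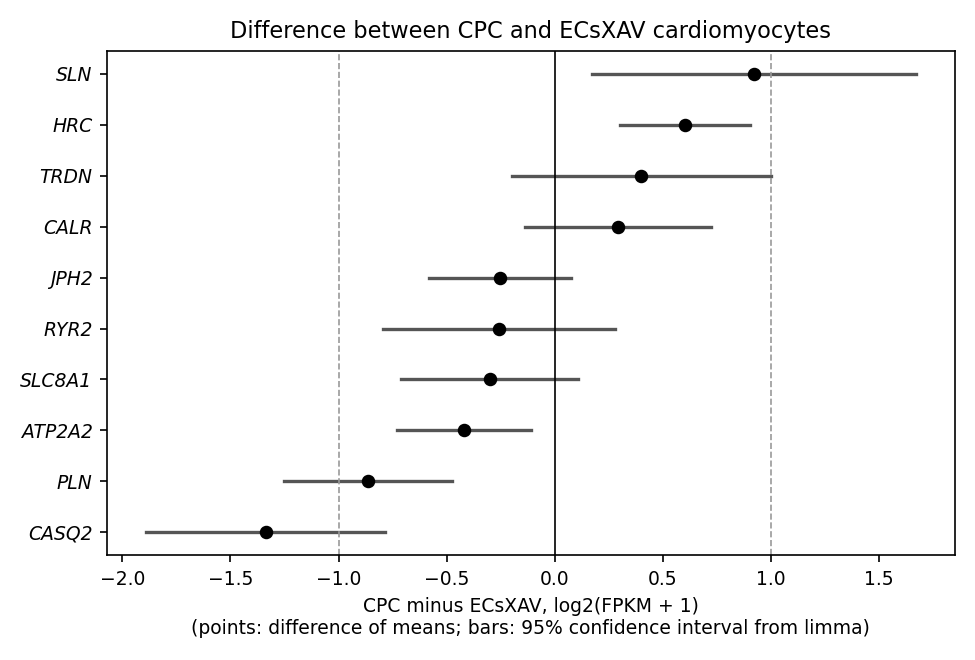
Difference of each gene between the groups on the log2(FPKM + 1) scale (points), with the 95% confidence interval from limma (bars) and dashed lines at a 2-fold change in either direction. CASQ2 lies at -1.34 and PLN at -0.87, while SLN lies at 0.92 and HRC at 0.60.

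Of the luminal and junctional genes, CASQ2, the high-capacity calcium buffer of the store, spans 116242642 to 116311505 of chromosome 1 (build GRCh37, equivalent to hg19). It had 3.38 and 2.09 FPKM in ECsXAV replicates 1 and 2 and 0.437 and 0.476 FPKM in CPC replicates 1 and 2. Both ECsXAV libraries were above both CPC libraries, and the ratio of the mean FPKM was 5.99. The difference was -1.34 on the log2(FPKM + 1) scale (standard error 0.21, adjusted p = 0.0542 from limma). Since CASQ2 was low, this scale understates its change, and with a pseudocount of 0.1 the difference was -2.31 and CASQ2 passed the criterion (adjusted p = 0.0466 from limma). It also passed when microRNA and small nucleolar RNA genes and failed estimates were left out of the fit (adjusted p = 0.0022 from limma), and without ECsXAV replicate 2 (-1.59, adjusted p = 0.0365 from limma). Its adjusted p ranged from 0.0022 to 0.177 over the alternatives that tested it. CASQ2 reached the filter of 1 FPKM through the ECsXAV libraries alone. From its separate count analysis, the study lists CASQ2 among cardiac genes that differed significantly between these groups, and ATP2A2 among those that did not.

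HRC spans 49654455 to 49658653 of chromosome 19 and had 160.4 and 169.6 FPKM in ECsXAV replicates 1 and 2 and 246 and 257 FPKM in CPC replicates 1 and 2. The replicates lay close together and the groups did not overlap. The difference was 0.60 (standard error 0.12, adjusted p = 0.0774 from limma), with a confidence interval from 0.30 to 0.91 that stayed under 2-fold. TRDN spans 123537484 to 123958334 of chromosome 6 and had 45.7 and 44.04 FPKM in ECsXAV replicates 1 and 2 and 74.7 and 47.3 FPKM in CPC replicates 1 and 2. The difference of 0.40 (adjusted p = 0.451 from limma) came mostly from CPC replicate 1, since without that library it was 0.08. JPH2 spans 42735230 to 42815828 of chromosome 20 and had 42.2 and 49.6 FPKM against 37.04 and 39.5 FPKM, a difference of -0.25 (confidence interval -0.58 to 0.08, adjusted p = 0.387 from limma), and without ECsXAV replicate 2 it was -0.14.

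RYR2, the release channel, lies on chromosome 1 from 237205484 to 237997288. It had 38.2 and 33.7 FPKM in ECsXAV replicates 1 and 2 and 36.1 and 24.5 FPKM in CPC replicates 1 and 2, and the groups overlapped. The difference was -0.26 with a confidence interval from -0.80 to 0.28 (adjusted p = 0.574 from limma), and without CPC replicate 2 it was 0.010. RYR2 has one of the longest messages here, with 16604 bases in its longest annotated transcript, and among the members only SLC8A1 has a longer one, with 21116 bases. Among the 313 genes with transcripts over 10 kb and a mean of at least 5 FPKM, the median log2 ratio of replicate 2 to replicate 1 was -0.25 in CPC and -0.042 in ECsXAV cardiomyocytes, and among the 2734 genes under 3 kb it was 0.17 and 0.081. The part of transcript length in the spread of RYR2 and SLC8A1 was not tested.

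Of the uptake genes, ATP2A2, the pump, spans 110718561 to 110788898 of chromosome 12 and had 308 and 298 FPKM in ECsXAV replicates 1 and 2 and 219 and 233 FPKM in CPC replicates 1 and 2. Its groups did not overlap, and the difference was -0.42 (confidence interval -0.73 to -0.11, adjusted p = 0.164 from limma). It was -0.24 under quantile normalization and -0.22 when the libraries were scaled to the cardiomyocyte markers, and ATP2A2 then left the genes with an unadjusted p under 0.05. PLN, the inhibitor of the pump in its unphosphorylated state, spans 118869459 to 118882879 of chromosome 6 and had 1234 and 1085 FPKM in ECsXAV replicates 1 and 2 and 629 and 640.0 FPKM in CPC replicates 1 and 2. Both CPC libraries were lower, with a ratio of mean FPKM of 1.83 in favor of ECsXAV cardiomyocytes. The difference was -0.87 (standard error 0.15, adjusted p = 0.0629 from limma), and the adjusted p ranged from 0.014 to 0.691 over the alternatives. The PLN gene lies inside CEP85L on the opposite strand, and CEP85L had 1.302 to 2.61 FPKM in the 4 libraries, far below PLN. The study's methods describe strand-specific counting for a separate count analysis, and the strand setting behind the FPKM is not given in the sources used here. This also bears on TRDN and SLC8A1, both with antisense neighbors. SLC8A1-AS1 was listed at 0 FPKM in all 4 libraries, and the neighbor of TRDN was not examined. SLN, the short pump inhibitor of atrial and skeletal muscle, spans 107578104 to 107590419 of chromosome 11 and had 1.54 and 2.39 FPKM in ECsXAV replicates 1 and 2 and 3.34 and 6.10 FPKM in CPC replicates 1 and 2. The groups did not overlap, but the CPC replicates differed by 1.82 times, and the difference of 0.92 had an interval from 0.17 to 1.67 (adjusted p = 0.192 from limma). With a pseudocount of 0.1 it was 1.20, and without CPC replicate 2 it was 0.57.

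The balance of pump and inhibitor was expressed as a ratio of FPKM within each library, which does not depend on scaling between libraries. The ratio of PLN to ATP2A2 was 4.01 and 3.64 in ECsXAV replicates 1 and 2 and 2.87 and 2.74 in CPC replicates 1 and 2, or 3.83 ± 0.26 (SD, n = 2) against 2.81 ± 0.089 (SD, n = 2). The ratio was lower in both CPC libraries, with a log2 difference of -0.45. The ratio of SLN to ATP2A2 was 0.00499 and 0.00802 in ECsXAV replicates 1 and 2 and 0.0152 and 0.0262 in CPC replicates 1 and 2, with a log2 difference of 1.66. It was higher in both CPC libraries, and even there PLN exceeded SLN by 188 and 105 times, against 802 and 455 times in the ECsXAV libraries. For both ratios the groups did not overlap, and the exact two-sided permutation p was 0.333, the smallest that 2 libraries against 2 allow.

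**Figure D3:**
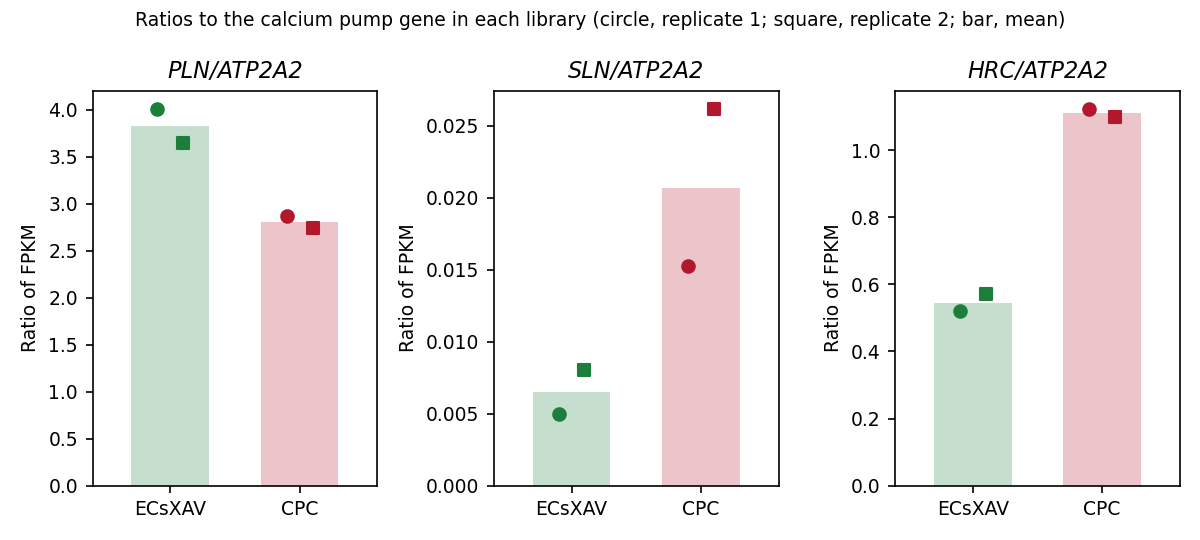
Ratio of FPKM of PLN, SLN and HRC to ATP2A2, the pump gene, in each library (circle, replicate 1; square, replicate 2), with the mean of each group as a bar from 0. PLN/ATP2A2 is lower in both CPC libraries, at 2.87 and 2.74 against 4.01 and 3.64, while SLN/ATP2A2 and HRC/ATP2A2 are higher in both.

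Further ratios were chosen after these values were seen. HRC per ATP2A2 was 0.521 and 0.570 in ECsXAV replicates 1 and 2 and 1.12 and 1.10 in CPC replicates 1 and 2, so the buffer gene was read at a lower level than the pump gene in one group and at a higher level in the other. CASQ2 per RYR2 was 0.0886 and 0.0622 against 0.0121 and 0.0194, and TRDN per RYR2 was 1.20 and 1.31 against 2.07 and 1.93. In CPC replicate 2, RYR2 and TRDN were at 0.679 and 0.633 times their levels in replicate 1, and their ratio lay close to that of replicate 1. JPH2 per RYR2 was 1.11 and 1.47 against 1.03 and 1.61, and SLC8A1 per ATP2A2 was 0.669 and 0.593 against 0.776 and 0.602. For these last ratios the groups overlapped.

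SLC8A1, which exports calcium in exchange for sodium, lies on chromosome 2 from 40324410 to 40838193. It had 206 and 177 FPKM in ECsXAV replicates 1 and 2 and 170 and 141 FPKM in CPC replicates 1 and 2. The spread within each group was close to the gap between them, and the difference was -0.30 (confidence interval -0.71 to 0.11, adjusted p = 0.405 from limma). It was -0.16 without CPC replicate 2 and -0.19 without ECsXAV replicate 1. CALR, a calcium-binding chaperone of the endoplasmic reticulum, spans 13049392 to 13055303 of chromosome 19 and had 100.4 and 109.8 FPKM in ECsXAV replicates 1 and 2 and 113 and 147 FPKM in CPC replicates 1 and 2. The difference of 0.29 (adjusted p = 0.442 from limma) was 0.10 without CPC replicate 2.

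Promoter sequence is shown for PLN and HRC, which with CASQ2 had the lowest unadjusted p among the members, to set the start regions of a gene with a lower and one with a higher level in CPC cardiomyocytes side by side. The CASQ2 window (chr1:116311336-116311585, minus strand) reaches into the CASQ2 gene as GENCODE draws it and is described without its letters. Each is the 250 bases before the start in RefSeq (GRCh38.p14), 5′ to 3′ on the strand of the gene, and was placed on GRCh37 by exact match. Capitals mark matches to letters that cardiac factors are known to bind: AGATAA for GATA factors, AAGTG for NKX2-5 and CATTCC (M-CAT) for TEAD factors, on both strands. The MEF2 letters CTANNNNTAG and the CArG box of SRF on both strands and TATAAA on the gene's strand were also searched and are absent from all 3 windows.
PLN (chr6:118869209-118869458, plus strand): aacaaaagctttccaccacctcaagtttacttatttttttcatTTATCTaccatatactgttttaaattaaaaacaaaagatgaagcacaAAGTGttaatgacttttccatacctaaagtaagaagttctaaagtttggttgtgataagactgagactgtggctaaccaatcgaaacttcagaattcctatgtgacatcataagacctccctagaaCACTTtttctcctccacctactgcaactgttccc
HRC (chr19:49658654-49658903, minus strand): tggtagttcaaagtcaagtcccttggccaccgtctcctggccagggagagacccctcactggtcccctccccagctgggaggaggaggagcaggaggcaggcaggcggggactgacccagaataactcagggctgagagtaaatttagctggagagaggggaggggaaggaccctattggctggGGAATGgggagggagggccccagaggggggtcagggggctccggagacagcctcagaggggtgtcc
The PLN window was 34.8% G and C and held 1 GATA match, from 207 to 202 bases before the start, and 2 NKX2-5 matches, from 160 to 156 and from 34 to 30 bases before it. The HRC window was 64.0% G and C and held 1 M-CAT match, from 66 to 61 bases before the start. The CASQ2 window was 48.0% G and C and held none of these letters in the exact forms searched. Of 35116 RefSeq windows of this length, 9.17% held the GATA letters, 37.6% the NKX2-5 letters, 11.9% the M-CAT letters, 2.36% the MEF2 letters, 1.16% the CArG box and 6.8% TATAAA. A match is a run of letters and was not tested as a binding site, and looser forms of these letters were not searched. Of the members, 9 had an entry in this table, and SLN did not.

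The transcript table showed which messages carried each gene. RYR2, CASQ2, HRC, PLN, SLN and CALR had 1 RefSeq transcript each, and ATP2A2, TRDN, JPH2 and SLC8A1 had several. For ATP2A2, NM_001681 held 95.9% and 95.6% of the transcript FPKM in ECsXAV replicates 1 and 2 and 93.8% and 94.4% in CPC replicates 1 and 2. NM_170665 made up the rest at 12.7 and 13.01 FPKM against 13.7 and 13.02 FPKM, so the lower ATP2A2 level of the CPC libraries lay in NM_001681, at 295 and 285 FPKM against 206 and 220.3 FPKM. For TRDN, NM_006073 held 59.3% and 62.8% in ECsXAV replicates 1 and 2 and 73.4% and 72.7% in CPC replicates 1 and 2, and NM_001256021 held 31.3% and 29.6% against 21.7% and 22.4%. In FPKM, NM_006073 was higher in both CPC libraries, at 54.9 and 34.4 against 27.1 and 27.7, while NM_001256021 was at 16.2 and 10.6 against 14.3 and 13.04. The shares of the groups did not overlap for either transcript, although CPC replicate 2 had a lower TRDN total than CPC replicate 1. For SLC8A1, NM_021097 held 92.2% to 94.8% in all libraries, and for JPH2, NM_020433 held 99.0% to 99.8%. These shares are estimates that Cufflinks makes from reads shared between transcripts, and the exact permutation p was again 0.333 at best.

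**Figure D4:**
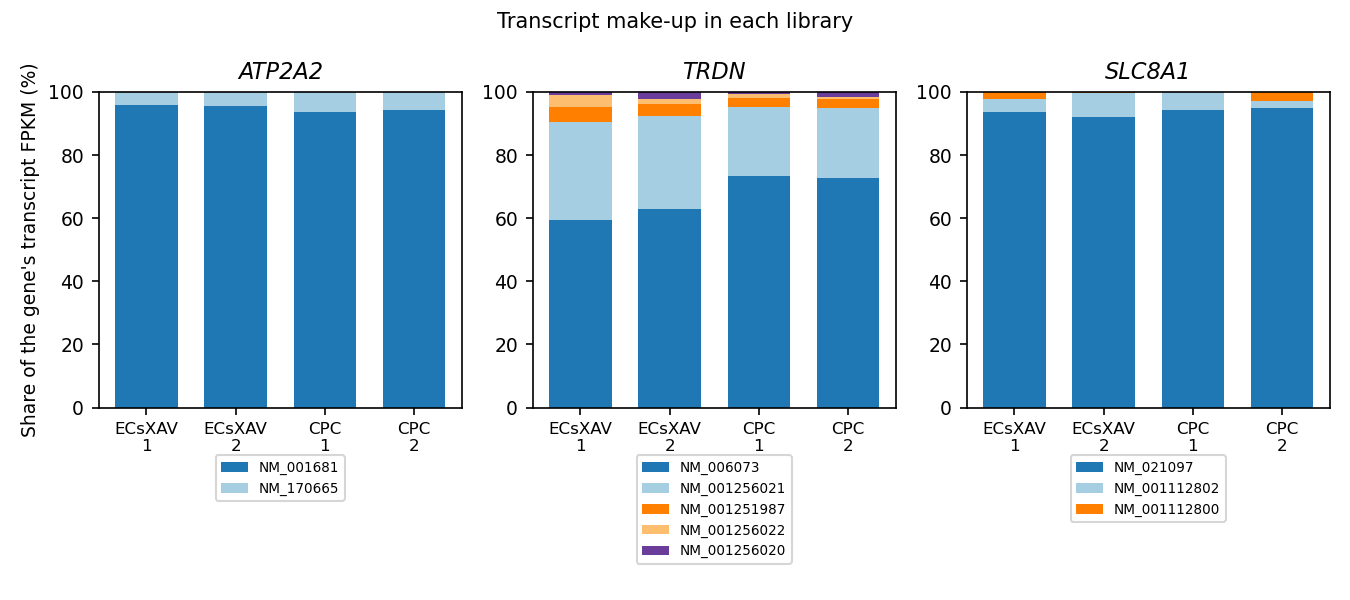
Share of each RefSeq transcript in the summed transcript FPKM of ATP2A2, TRDN and SLC8A1 (percent, stacked bars) in each of the 4 libraries. NM_006073 of TRDN takes 59.3% and 62.8% in ECsXAV replicates 1 and 2 and 73.4% and 72.7% in CPC replicates 1 and 2, while ATP2A2 and SLC8A1 are carried by 1 transcript in every library.

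The wider calcium machinery was described with a list of 82 other genes, also chosen with earlier results of these data known. Of these, 81 were found and 69 had a mean of at least 1 FPKM. Of the 69, 3 rose in CPC cardiomyocytes under the criterion (RYR1, BIN1 and PPP1R3A, beside 0.71% of all genes tested), 1 fell (ATP2B4, beside 1.44%) and 65 did not pass. The median difference was 0.01, with 36 genes above 0 and 33 below. None of the 4 genes passed when any 1 of the 4 libraries was left out. RYR1, the release channel of skeletal muscle, rose from 1.08 and 1.07 FPKM in ECsXAV to 4.05 and 3.04 FPKM in CPC cardiomyocytes, a difference of 1.12 (adjusted p = 0.0451 from limma). BIN1, a membrane-bending protein of T-tubules, rose from 7.37 and 7.17 FPKM to 15.9 and 15.6 FPKM, a difference of 1.02 (adjusted p = 0.0229 from limma). PPP1R3A, which targets protein phosphatase 1 to glycogen and the sarcoplasmic reticulum of muscle, rose from 2.59 and 3.24 FPKM to 14.4 and 9.10 FPKM, a difference of 1.68 (adjusted p = 0.0432 from limma). ATP2B4, a calcium pump of the plasma membrane, fell from 87.4 and 80.2 FPKM to 41.0 and 38.3 FPKM, a difference of -1.06 (adjusted p = 0.0257 from limma).

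**Figure D5:**
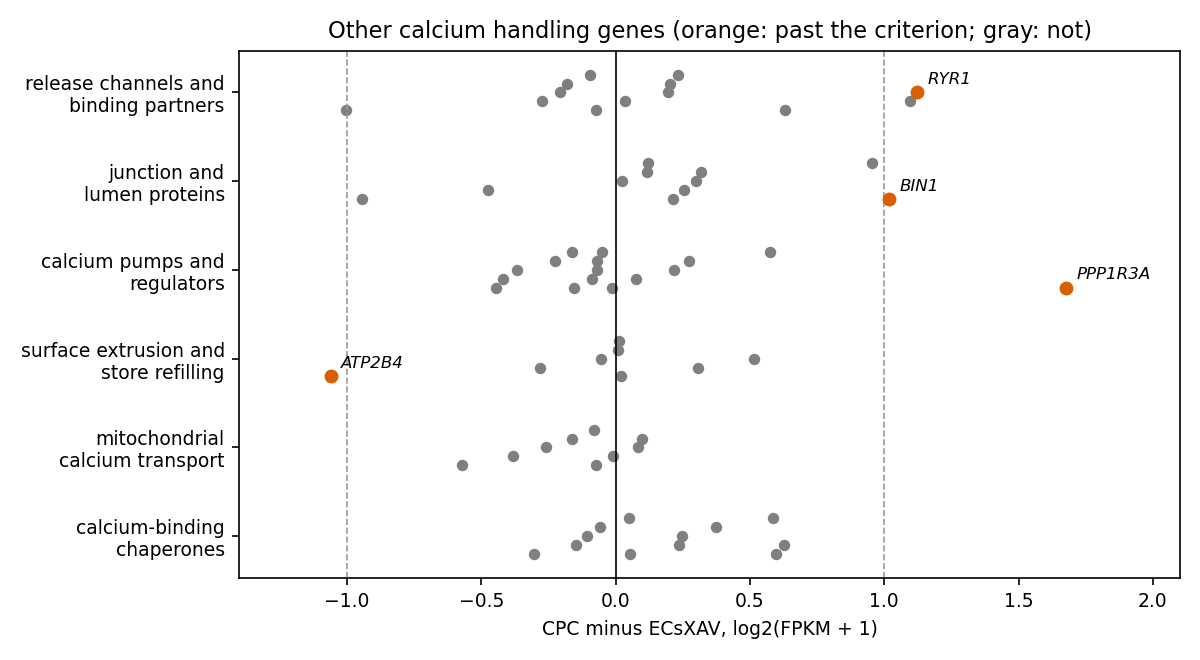
Difference between the groups on the log2(FPKM + 1) scale for the 69 tested genes of the wider calcium list, arranged by role, with genes past the criterion in orange and dashed lines at a 2-fold change. RYR1, BIN1 and PPP1R3A lie at 1.12, 1.02 and 1.68, and ATP2B4 lies at -1.06.

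Skeletal-type counterparts of the cardiac members were read in every library. RYR1 made up 2.75% and 3.08% of the summed FPKM of RYR1 and RYR2 in ECsXAV replicates 1 and 2 and 10.1% and 11.0% in CPC replicates 1 and 2. CASQ1, the calsequestrin of skeletal muscle, had 6.43 and 6.62 FPKM against 12.1 and 15.2 FPKM, a difference of 0.95 (adjusted p = 0.0475 from limma) that was under 2-fold on this scale and so did not pass. It passed with a pseudocount of 0.1 (1.04, adjusted p = 0.0391 from limma) and when scaled to the cardiomyocyte markers (1.13, adjusted p = 0.0318 from limma), and over all alternatives its adjusted p ranged from 0.00386 to 0.292. CASQ1 was above CASQ2 in every library, with 65.5% and 76.0% of their summed FPKM in ECsXAV replicates 1 and 2 and 96.5% and 97.0% in CPC replicates 1 and 2. The skeletal pump gene ATP2A1 had 1.26 and 1.37 FPKM against 1.03 and 1.11 FPKM (difference -0.16, adjusted p = 0.624 from limma), and made up 0.406% to 0.472% of the summed FPKM of ATP2A1 and ATP2A2. Of the 14 skeletal muscle markers, 8 were below 1 FPKM in all 4 libraries, and MYF5 and MYF6 were listed at 0 in every library and MYOD1 in 3 of them. Their summed level was 406 and 471 FPKM in ECsXAV replicates 1 and 2 and 354 and 466 FPKM in CPC replicates 1 and 2, most of it from CKM, which the heart also expresses. TNNC2, the troponin C of fast skeletal fibers, rose from 2.92 and 3.01 FPKM to 22.9 and 25.02 FPKM, a difference of 2.65 (adjusted p = 0.00291 from limma). TNNT3, the troponin T of the same fibers, stood the other way at 3.76 and 3.89 FPKM against 0.988 and 1.92 FPKM, a difference of -1.002 that did not pass (adjusted p = 0.0989 from limma). The part of skeletal-type cells in RYR1, CASQ1 and SLN was not tested.

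The remaining genes with the largest differences in the role groups were as follows, and the role groups were not compared with each other. Among 13 tested release channels and partners, S100A1, a calcium sensor that binds the ryanodine receptor, had 0.460 and 2.07 FPKM against 3.31 and 3.75 FPKM. Its difference of 1.10 did not pass (adjusted p = 0.220 from limma). Of the 13, 7 were above 0 and 6 below, and AKAP6 was the lowest at -1.002 (adjusted p = 0.0507 from limma). Of 11 tested junction and lumen genes, 9 were above 0 and 2 below. TCAP was the lowest of them at -0.94 (adjusted p = 0.0535 from limma). Among 16 tested pumps and regulators, the kinase gene CAMK2A had 10.5 and 11.8 FPKM against 16.6 and 17.5 FPKM, a difference of 0.58 (adjusted p = 0.0831 from limma). Among 8 tested genes of surface extrusion and store refilling, the store sensor STIM2 had 2.77 and 2.55 FPKM against 4.46 and 4.03 FPKM, a difference of 0.52 (adjusted p = 0.124 from limma). None of the 9 tested mitochondrial transport genes passed, and the outer membrane channel gene VDAC2 led with a difference of -0.57 (adjusted p = 0.0976 from limma), followed by SLC8B1, the mitochondrial sodium-calcium exchanger, at -0.38 (adjusted p = 0.293 from limma).

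CALR stood beside 12 tested calcium-binding chaperones of the endoplasmic reticulum, none of which passed. HSPA5, the chaperone BiP, had 37.1 and 40.9 FPKM in ECsXAV replicates 1 and 2 and 54.2 and 67.9 FPKM in CPC replicates 1 and 2, a difference of 0.63 (adjusted p = 0.119 from limma). HSP90B1, or GRP94, had 117 and 116 FPKM against 163 and 192 FPKM, a difference of 0.60 (adjusted p = 0.0999 from limma). Of the 12, 8 were above 0 and 4 below, with a median of 0.15, and 5 had an unadjusted p under 0.05. Of these, 4 were higher in CPC cardiomyocytes, beside 7.86% of all genes tested, and 1 was lower (CALU, difference -0.30, adjusted p = 0.232 from limma), beside 10.4%.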

How the data were processed

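The authors sequenced poly-A RNA and computed the deposited FPKM by running Cufflinks on hg19 with the UCSC gene models. The methods name Gsnap for a separate count analysis, and the submitters' processing notes list TopHat 1.3.3, so the aligner behind the FPKM is uncertain. Read counts were not used here, and count models do not apply to FPKM. Each library's genes were compared on log2(FPKM + 1) with limma 3.58.1 in R 4.3.3 with an intensity trend, over the 12398 genes whose mean FPKM reached 1, with Benjamini-Hochberg adjustment. Where a symbol had more than 1 row, the row highest on average was kept. Such rows combine loci across libraries, so the kept values need not come from 1 locus. Ratios were tested with an exact permutation test. The fit was tested on simulated data.

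The members and gene lists were chosen with earlier results of these data known. Named are all members, listed calcium genes past the criterion, the 2 with the largest difference in each role, RYR1, CASQ1 and ATP2A1, and markers past the criterion. CEP85L, SLC8A1-AS1 and markers listed at 0 were named after their values were seen. So were MYL7, MYL4, KDR, CDH5, EMCN, ACTA2, TNNT2, CKM, TNNT3, CALU, AKAP6 and TCAP. Biological replicates are as the study states. Positions are from GENCODE release 44 lifted to GRCh37. Alternatives were a pseudocount of 0.1, no filter or a mean FPKM of at least 5, 3 scalings, no trend, robust eBayes, leaving out microRNA and small nucleolar RNA genes and failed estimates (0 beside at least 5 FPKM in a group), a replicate block, transcript sums, summed loci and each library left out.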

Additional observations from a re-analysis of the deposited data

How the results depend on the processing

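Of the 10 genes, 9 kept their direction under every alternative that tested them. CASQ2 and SLN were not tested at a mean FPKM of at least 5. The groups of these 9 did not overlap, so only the scalings, quantile normalization among them, could have turned their direction. Another pseudocount or leaving out 1 library cannot reverse groups that do not overlap. The other alternatives left the difference the same or nearly so. RYR2 ranged from -0.53 to 0.010 when 1 library was left out, turning positive without CPC replicate 2. CASQ2 passed the criterion, and 1 member instead of 0, with a pseudocount of 0.1, without an intensity trend, with robust eBayes, and without short RNA genes and failed estimates. Leaving out 1 library gave 0 to 1 members, CASQ2 passing without ECsXAV replicate 2 (-1.59, adjusted p = 0.0365 from limma). There the lone library is assumed to vary like the other group. All genes past the criterion numbered 266, against 20 with no filter, 152 at a mean FPKM of at least 5, 176 with the replicate block and 50 to 118 without 1 library. The 4 genes of the calcium list became 0 with no filter, 2 with the replicate block and 0 without any 1 library, and the cause was not tested. The block changed no call among the members. Replicate numbers give 2 pairs only and the labels do not tie them to shared cultures, and the replicate differences of the groups correlated across genes with Pearson's r of 0.035 and Spearman's rho of 0.356, and with 0.302 and 0.378 when short RNA genes and failed estimates were left out. Scaling to cardiomyocyte markers used their sum, most of it MYL7. It moved the median of all genes to 0.17. HRC then stood at 0.80 (adjusted p = 0.0435 from limma) and PLN at -0.66, or 0.64 and -0.83 relative to that median. RYR2, JPH2, SLC8A1 and ATP2A2 stood at -0.064, -0.056, -0.10 and -0.22, or -0.23, -0.23, -0.27 and -0.39 relative to it. That scaling gave 109 genes higher and 112 lower in CPC cardiomyocytes against 88 and 178 in the main comparison, no filter gave 12 higher of 20, and the balance turned to 39 higher and 11 lower without CPC replicate 1 and to 56 and 16 without CPC replicate 2. For the ratio differences, leaving out 1 library cannot move the value beyond the pooled SD of the replicates, and transcript sums repeat the gene FPKM. These runs therefore could not test the ratios. Under quantile normalization the difference of PLN/ATP2A2 was -0.488 and with a pseudocount of 1 it was -0.447, against -0.446 (pooled SD 0.076). That of SLN/ATP2A2 was 1.497 and 1.341, against 1.658 (pooled SD 0.518). These moves were smaller than the pooled SD. Depth limits SLN and CASQ2, the lowest members.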
